A study of Mus musculus with 40 samples.

Results

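Livers of male C57BL/6 mice given TCDD at 30 μg/kg were compared with livers of mice given the sesame oil vehicle alone. The groups were the 5 libraries whose dose label is 30 and the 5 whose dose label is 0, of 40 libraries in all, each from 1 mouse and each made from total liver RNA. All mice came from 1 supplier, ate the same chow and carried no engineered allele. By the labels the mice were 30 days old at the first gavage and 58 days old at the end, with a gavage every 4 days over 28 days, and the study's methods place the livers' collection within the first hours of the light phase. The next lower dose, 10 μg/kg (5 mice), is used below to see what the step to 30 μg/kg added. Every mouse of a group is a separate animal, so the errors below are between mice. Reads assigned to genes numbered 15.5 M to 20.9 M in the vehicle libraries and 17.4 M to 19.5 M in the 30 μg/kg libraries.

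TCDD, the most potent of the dioxins, is a long-lived environmental contaminant that binds the aryl hydrocarbon receptor (AhR). Bound AhR moves to the nucleus, pairs with ARNT and activates genes that hold its response element, above all the CYP1 family of cytochromes P450. In mouse liver repeated dosing is known for fat accumulation, loss of hepatocyte functions, and inflammation with scarring.

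Levels are given as CPM, a gene's reads as a share of all reads assigned to genes, with library sizes adjusted by TMM scaling. A gene was called when it changed at least 1.5-fold with a Benjamini-Hochberg adjusted p under 0.05 in edgeR's quasi-likelihood test. Of 15373 genes tested, 42.1% were called, 23.2% higher and 18.9% lower, so that a list of genes taken at random would already hold many calls, and each count below is to be read against these shares. Gene lists are pathways, cell type markers and families, 86 in all. They were chosen with earlier results of these data known, so a count above the shares of all genes is a description and not a test. Their members were counted whether or not they moved, but a gene nearly silent in vehicle mice could pass the filter on low counts only through a treated group, so the counts describe the tested members and not all that are listed. For each list the median log2 fold change of the tested members is to be set beside that of all genes tested, which was 0.03. Scaling to total counts alone put the median of all genes at 0.52 and gave 6402 genes higher and 1559 lower. The balance of a list is the share of higher calls among all its calls. Where that scaling moved the balance of a list described below by over 10 percentage points, its counts are given beside the list. Counts could also move without the balance. Amino acid breakdown went from 30 to 23 lower and sinusoidal endothelial markers from 9 to 13 higher.

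Mouse 1 at 30 μg/kg stood apart from the other 4. Its mean level lay closer to the vehicle mean than that of all 4 others in 54 of the 86 lists and families, and inside their range in 27. Leaving it out changed a list's number of higher calls by at most 2 and of lower calls by at most 6. Values with and without it are given for some of the lists and genes where they part. The title numbers of the libraries fall into a low set (up to 27, with 3 vehicle and 2 treated mice) and a high set (from 28, with 2 vehicle and 3 treated mice). Of the 64 lists and families whose median was at least 0.5 from 0 in either direction, all 64 had the same sign in both sets. They were picked by their median over these same libraries, so this agreement was largely set in advance. Over all 86, the median changed sign in 2 with the low set alone and in 3 with the high set alone. Mouse 1 is 1 of only 2 treated mice in the low set.

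**Figure D1:**
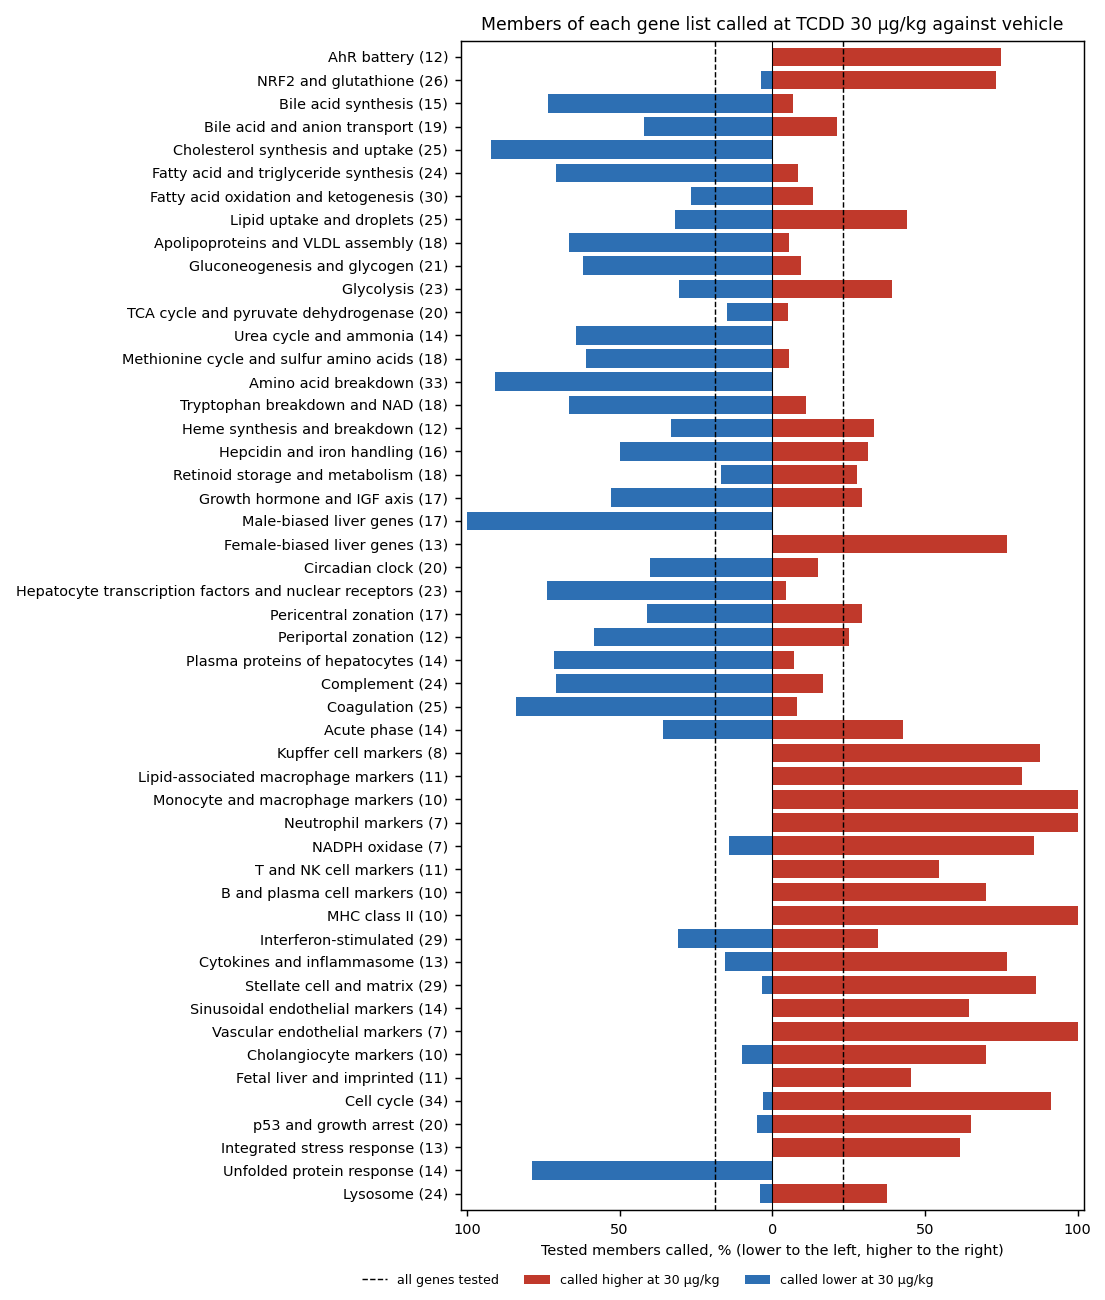
Share of the tested members of each of 50 gene lists called lower (blue, left) or higher (red, right) at 30 μg/kg against vehicle, in percent, with the number of tested members in parentheses. The dashed lines are the shares among all genes tested, 18.9% lower and 23.2% higher. Male-biased genes, amino acid breakdown and cholesterol synthesis reach far to the left, and MHC class II, monocyte and macrophage markers and the cell cycle far to the right.

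The AhR battery comprised the receptor, its partner and the genes most often used to read its activity. Of 12 members tested, 9 rose, none fell, and the median log2 fold change was 4.25 (4.38 in the low and 4.00 in the high set of title numbers, each with 1 member called lower). The 3 that were not called were the receptor itself, Ahr, its partner Arnt, and Ugt1a6b (log2 -0.53), which is the member called lower in either set and was also called lower without treated mouse 3 (-0.60) or 4 (-0.68). Aldh3a1, a classical AhR target in other tissues, did not pass the filter on low counts and had at most 18 counts in any treated library and 0 in every vehicle library. The 250 bases before the annotated start of the members that carry the response are shown because the core of the AhR response element is a short fixed word, GCGTG, which reads CACGC when it lies on the other strand. They are from RefSeq on GRCm38.p6, each written 5′ to 3′ in the direction of its gene, with every GCGTG or CACGC in capitals.

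Cyp1a1, chr9:57697363-57697612, plus strand: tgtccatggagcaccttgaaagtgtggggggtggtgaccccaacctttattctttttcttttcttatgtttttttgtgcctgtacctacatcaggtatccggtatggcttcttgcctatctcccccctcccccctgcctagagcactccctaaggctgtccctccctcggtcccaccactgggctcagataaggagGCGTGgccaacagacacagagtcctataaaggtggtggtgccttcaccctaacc
Cyp1a2, chr9:57683656-57683905, minus strand: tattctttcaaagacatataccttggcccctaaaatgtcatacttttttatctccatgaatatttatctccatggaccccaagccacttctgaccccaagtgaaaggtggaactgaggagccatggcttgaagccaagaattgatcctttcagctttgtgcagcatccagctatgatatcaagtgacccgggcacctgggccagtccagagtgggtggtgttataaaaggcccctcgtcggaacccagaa
Cyp1b1, chr17:79715062-79715311, minus strand: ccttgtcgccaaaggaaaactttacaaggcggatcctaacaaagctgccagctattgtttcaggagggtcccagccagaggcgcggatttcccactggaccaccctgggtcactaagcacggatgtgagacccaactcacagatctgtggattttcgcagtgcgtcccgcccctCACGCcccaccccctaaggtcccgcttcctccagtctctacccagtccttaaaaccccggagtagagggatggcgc
Tiparp, chr3:65528197-65528446, plus strand: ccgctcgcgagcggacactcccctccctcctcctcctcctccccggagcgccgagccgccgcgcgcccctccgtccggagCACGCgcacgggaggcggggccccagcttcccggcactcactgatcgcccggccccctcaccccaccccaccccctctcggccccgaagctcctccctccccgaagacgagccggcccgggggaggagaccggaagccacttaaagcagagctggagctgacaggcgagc
Ahrr, chr13:74292332-74292581, minus strand: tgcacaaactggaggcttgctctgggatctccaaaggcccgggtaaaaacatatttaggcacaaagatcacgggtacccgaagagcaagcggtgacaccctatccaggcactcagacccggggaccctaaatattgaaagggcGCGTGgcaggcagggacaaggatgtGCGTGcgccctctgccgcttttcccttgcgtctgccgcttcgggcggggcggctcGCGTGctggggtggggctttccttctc
Nqo1, chr8:107403206-107403455, minus strand: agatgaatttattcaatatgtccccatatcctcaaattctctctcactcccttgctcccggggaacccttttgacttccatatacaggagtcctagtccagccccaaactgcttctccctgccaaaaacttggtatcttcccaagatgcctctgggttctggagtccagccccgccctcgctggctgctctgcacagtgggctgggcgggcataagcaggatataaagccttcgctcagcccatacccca

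The word occurred once before Cyp1a1 (54 bases before the start), once on the other strand before Cyp1b1 (76 bases) and Tiparp (170 bases), and 3 times before Ahrr (107, 82 and 27 bases). The windows of Cyp1a2 and Nqo1 do not hold these letters. The word is found in 28.2% of all 32851 windows of this length. Counted by gene and not by window, 47.5% of the 11101 tested genes with a window hold it. The units differ, so the share of windows cannot be set beside the share of genes. The share of genes was 44.4% among those called higher, 43.9% among those called lower and 49.8% among those not called.

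Cyp1a2, a P450 already abundant in untreated liver, stood at 899, 901, 1089, 1027 and 1232 CPM in the 5 vehicle mice and at 21926, 20174, 21363, 24932 and 27163 CPM in mice 1 to 5 at 30 μg/kg. The groups lay far apart and mouse 1 was among its group. TCDD induced Cyp1a2 22.4-fold (log2 fold change 4.49 ± 0.15, SE, adjusted p = 8.24e-24). Cyp1a1, the inducible P450 of the pair, rose from 1.66 ± 0.48 to 5767 ± 666 CPM (mean ± SD, n = 5 in each group). Tiparp, a poly-ADP-ribose polymerase that feeds back on the receptor, rose 28.5-fold, and Nqo1, a quinone reductase that also answers to NRF2, 27.9-fold. Ahrr, the AhR repressor, stood at 0 to 0.149 CPM in vehicle mice, at or under the floor of 3 counts in every one, and at 27.3 to 97.7 CPM at 30 μg/kg. Ugt1a6a rose by only 1.79-fold, from 9.78 ± 3.43 to 17.5 ± 3.64 CPM, with overlapping groups, and lost its call without vehicle mouse 2 (log2 0.74) or 5 (0.69). Ahr had 36.5 to 44.4 CPM in vehicle mice and 28.6 to 92.2 CPM at 30 μg/kg and was not called (adjusted p = 0.0786), though it was without mouse 5 at 30 μg/kg (log2 0.71).

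The step from 10 to 30 μg/kg was tested as a contrast of its own within the same fit. It called 21.1% of all genes, 10.6% higher and 10.6% lower. Of the 12 battery members 4 were higher at 30 than at 10 μg/kg, Cyp1b1 (log2 difference 1.30), Gsta1 (1.51), Nqo1 (2.07) and Tiparp (0.76), while Cyp1a1 (-0.20), Cyp1a2 (0.07) and Ahrr (-0.01) were not called.

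NRF2 is activated by oxidants and electrophiles, and its targets make glutathione, thioredoxin reductase and NADPH. The list of NRF2 and glutathione genes also holds Nfe2l2, the NRF2 gene itself, and Keap1. All 26 members of that list were tested. At 30 μg/kg 19 rose and 1 fell (Osgin1), with a median log2 fold change of 1.38 (1.08 and 1.46 in the low and high sets). Srxn1, the sulfiredoxin that reactivates peroxiredoxins, had 46.1, 51.3, 56.8, 43.9 and 44.6 CPM in vehicle mice and 176, 1213, 1442, 1072 and 1275 CPM in mice 1 to 5 at 30 μg/kg. Mouse 1 was above every vehicle mouse but far below the other 4. The rise was 21.3-fold (log2 4.42 ± 0.27, SE, adjusted p = 2.42e-16), and leaving mouse 1 out put the log2 fold change at 4.69. Hmox1, which degrades heme, rose 14.3-fold, Txnrd1 2.30-fold and G6pdx, the entry to the pentose phosphate pathway, 3.32-fold. Gclc, the catalytic subunit that limits glutathione synthesis, rose 1.75-fold, with mouse 1 (472 CPM) inside the vehicle range of 462 to 585 CPM and the others at 921 to 1344 CPM. The mean log2 level of the whole list was 1.16 above vehicle in mouse 1 and 2.45 to 2.53 above it in the others, against 0.67 to 0.89 at 10 μg/kg. From 10 to 30 μg/kg 17 of the 26 rose further.

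Drug-metabolizing families did not move as blocks. Among the Cyp2 P450s, the largest family of drug and steroid hydroxylases, 43 of 57 were tested, 30 fell and 7 rose (median -1.69). The mean log2 level of the family relative to vehicle was -0.157 in mouse 1, inside the vehicle range of -0.199 to 0.175. The other 4 treated mice lay at -2.27 to -1.11, and without mouse 1 the median was -2.16. Cyp2a4, a steroid hydroxylase with female-biased expression, showed the largest rise, with 0.501 to 14.6 CPM in vehicle mice and 138, 2306, 2107, 1931 and 1626 CPM in mice 1 to 5 at 30 μg/kg. Mouse 1 was more than an order of magnitude below the other 4 but above every vehicle mouse. The fitted rise was 393-fold (log2 8.62 ± 0.96, SE, adjusted p = 9.98e-10). Cyp2a4 is nearly identical in sequence to Cyp2a5, and only reads that map once were counted, so the split between both is uncertain. Cyp2d40 had the largest fall in the family, 16.1-fold, from 83.9 ± 7.83 to 5.29 ± 7.56 CPM.

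The smaller P450 families were split as well. Of 5 Cyp3a genes tested 3 fell, led by Cyp3a13 (5.67-fold), and Cyp3a44 rose. Of 15 Cyp4 fatty acid hydroxylases 4 rose and 7 fell, and their median, -0.24, turned positive (0.23) when libraries were scaled to total counts. Cyp4a12a, a male-biased member, had 247, 214, 519, 488 and 377 CPM in vehicle mice and 9.30, 3.95, 1.41, 1.63 and 8.43 CPM at 30 μg/kg. No treated mouse came near the vehicle range, and the fall was 75.0-fold (log2 -6.23 ± 0.57, SE, adjusted p = 7.55e-12). Cyp4a31 moved the other way, 13.1-fold higher. The copies within Cyp4a12 share sequence, which makes their single values uncertain.

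Among conjugating enzymes the glutathione S-transferases gave 10 rises and 9 falls of 23 tested (median 0.02). Gstm3 rose 18.9-fold, from 148 ± 12.4 to 2803 ± 1181 CPM, and its neighbour in the family Gstm6 fell 5.97-fold. Of 16 UDP-glucuronosyltransferases 4 rose, Ugt1a7c most (28.3-fold), and 8 fell, Ugt1a5 most (5.83-fold). Those 2 are products of 1 locus with shared last exons, so only reads in their own first exons tell them apart. The mean log2 level of this family relative to vehicle was 0.034 in mouse 1, inside the vehicle range of -0.309 to 0.235. It was -1.04 to -0.668 in the other 4 treated mice. Of 10 sulfotransferases 5 rose and 5 fell. Sult2a8 had 534 to 764 CPM in vehicle mice and 9.49, 2.08, 4.42, 2.82 and 3.12 CPM at 30 μg/kg, a 153-fold fall (log2 -7.25 ± 0.38, SE, adjusted p = 2.25e-18). Its family member Sult2a2 had 0 counts in every vehicle library and 13.7 ± 4.62 CPM at 30 μg/kg, at least 73.2-fold higher when vehicle is set at the floor of 3 counts per library.

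Of 16 carboxylesterases 10 fell and only Ces1b rose, 2.48-fold (3 higher and 7 lower with total-count scaling). Ces3a stood at 2039 to 2778 CPM in vehicle mice and at 143, 0.291, 0.0763, 0 and 11.7 CPM in mice 1 to 5 at 30 μg/kg. Mouse 1 kept the most, and the log2 fold change was -6.19 with it and -9.56 without it. Aldh3b1, which oxidizes lipid-derived aldehydes, rose 28.9-fold among 17 aldehyde dehydrogenases of which 5 rose and 5 fell (7 higher and 2 lower with total-count scaling, the median turning from -0.12 to 0.36). Of 13 hydroxysteroid dehydrogenases 6 fell and Hsd17b6 alone rose, 3.61-fold (2 higher and 5 lower with total-count scaling).

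**Figure D2:**
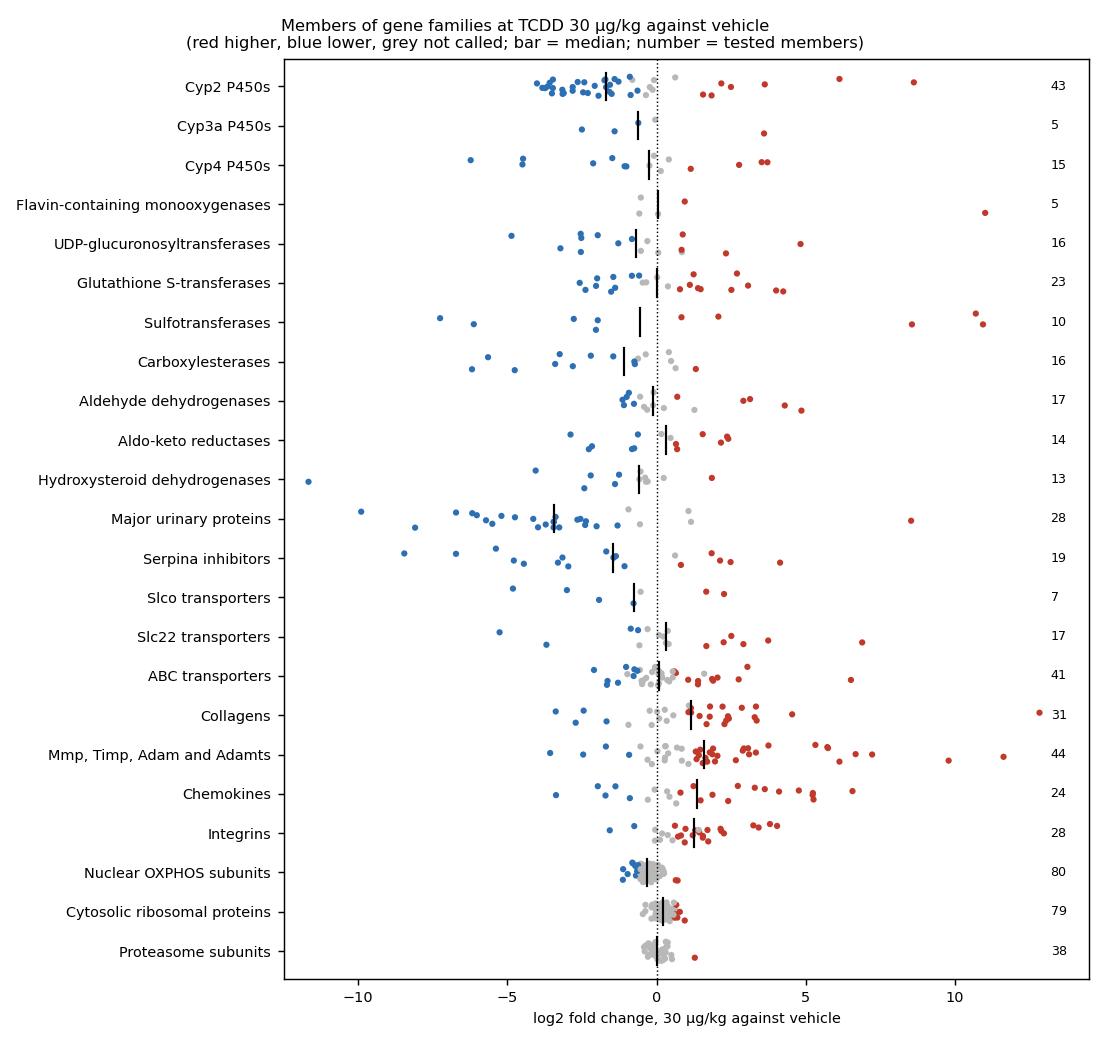
Fitted log2 fold change of every tested member of 23 gene families at 30 μg/kg against vehicle, 1 point a gene, red when called higher, blue when called lower and grey when not called. The black bar is the family's median and the number at the right its tested members. Cyp2 P450s, carboxylesterases and major urinary proteins spread to the left, collagens and the Mmp, Timp, Adam and Adamts group to the right, and ribosomal and proteasome subunits stay close to the dotted line at the median of all genes, 0.03.

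Bile acids are made from cholesterol in hepatocytes, taken back from blood by Slc10a1 and the Slco carriers, and pumped into bile by Abcb11. Of 15 synthesis genes tested 11 fell and 1 rose (Cyp39a1, log2 0.74, and 0.55 and not called without treated mouse 4), with a median log2 fold change of -1.34 (-1.27 and -1.54 in the low and high sets). Cyp27a1, first enzyme of the acidic branch, fell 2.97-fold, Cyp8b1, which sets the cholic acid share, 2.42-fold, Cyp2c70, which makes muricholic acids, 13.3-fold, and Baat, which conjugates bile acids to taurine, 4.64-fold. Cyp7a1, the rate-limiting enzyme, had 16.8 to 59.8 CPM in vehicle mice and 188, 1.21, 1.91, 47.1 and 9.82 CPM in mice 1 to 5 at 30 μg/kg. Mouse 1 was above every vehicle mouse, mouse 4 inside their range and the other 3 below it. Cyp7a1 was not called (adjusted p = 0.574), and its log2 fold change was 0.54 with mouse 1 and -1.18 without it. Hsd3b7 and Ch25h did not pass the filter on low counts.

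Slc10a1, the sodium-dependent carrier, had 607, 573, 464, 611 and 650 CPM in vehicle mice and 58.3 to 239 CPM at 30 μg/kg, mouse 1 highest. All treated mice lay below all vehicle mice, and the fall was 4.99-fold (log2 -2.32 ± 0.21, SE, adjusted p = 7.26e-12). Slco1b2 fell 3.81-fold and the export pump Abcb11 3.13-fold. Abcc4, a basolateral pump that can return bile acids to blood, had 1.79 to 3.79 CPM in vehicle mice and 42.0, 208, 261, 349 and 285 CPM at 30 μg/kg, a 91.2-fold rise (log2 6.51 ± 0.40, SE, adjusted p = 2.27e-16). In the transport list as a whole 8 of 19 fell and 4 rose, the others being Abcb4, Abcb1a and Abcb1b (6 higher and 6 lower with total-count scaling, the median going from -0.54 to -0.0037). Without treated mouse 2, 3 or 4 only 2 rose. Abcb4 (log2 0.48 to 0.53) was not called without any one of 4 libraries, and Abcb1a (0.75 to 1.05) without any one of 6. The small heterodimer partner Nr0b2, which represses bile acid synthesis, fell 9.50-fold from 70.3 ± 27.8 to 7.42 ± 4.04 CPM, and the bile acid receptor Nr1h4 fell 1.75-fold.

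In cholesterol synthesis mouse 1 parted from the other 4 treated mice. All 25 members were tested, 23 fell and none rose (median -1.83, -1.12 in the low and -2.48 in the high set). The mean log2 level of the list was -0.31 relative to vehicle in mouse 1, inside the vehicle range of -0.34 to 0.32, and -2.93 to -2.05 in the other 4. Without mouse 1 the count was 24 and the median -2.58. Hmgcs1, which feeds the pathway, had 274 ± 108 CPM in vehicle mice (SD, n = 5) and 216, 42.7, 39.0, 49.0 and 38.3 CPM in mice 1 to 5 at 30 μg/kg. Mouse 1 lay above the lowest vehicle mouse and the other 4 below all vehicle mice. Hmgcs1 fell 3.56-fold (log2 -1.83 ± 0.38, SE, adjusted p = 9.32e-05), Sqle 2.74-fold and Cyp51 3.91-fold. At 10 μg/kg the mean of the list was -0.41 to 0.32, and all 25 members were lower at 30 than at 10 μg/kg.

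Fatty acid and triglyceride synthesis followed with 17 of 24 members lower and 2 higher, Scd2 and Lpin2 (median -1.73, -1.26 in the low and -2.08 in the high set). Fasn, the fatty acid synthase, had 1525, 808, 742, 1156 and 1029 CPM in vehicle mice and 416, 37.8, 47.2, 111 and 138 CPM at 30 μg/kg, mouse 1 highest and all below vehicle. The fall was 7.01-fold (log2 -2.81 ± 0.39, SE, adjusted p = 8.87e-08). Scd1, which desaturates stearate, fell 4.24-fold, the regulator Srebf1 4.13-fold and Thrsp 5.06-fold. Secretion genes fell too, with 12 of 18 apolipoprotein and VLDL assembly genes lower and Apoa4 alone higher (median -1.27). Apob fell 2.85-fold, from 3719 ± 562 to 1304 ± 378 CPM, while Mttp, which loads lipid onto it, lay just short of the fold threshold (log2 -0.58) and was called lower once any of 7 single libraries was left out (-0.65 to -0.59).

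Of 25 lipid uptake and droplet genes 11 rose and 8 fell (median 0.59, and 13 higher and 3 lower with total-count scaling). Cd36, the fatty acid translocase, had 37.3, 61.5, 25.0, 20.7 and 37.6 CPM in vehicle mice and 326, 569, 584, 701 and 523 CPM at 30 μg/kg. Every treated mouse was above every vehicle mouse, and Cd36 rose 14.8-fold (log2 3.89 ± 0.28, SE, adjusted p = 1.4e-14). Lpl, which releases fatty acids from circulating triglyceride, rose 5.97-fold, Vldlr 4.03-fold and Pparg 2.41-fold. Plin2, the coat of lipid droplets, rose 1.51-fold with mouse 1 (295 CPM) below the vehicle range of 456 to 575 CPM and mice 2, 3 and 5 above it, and its call was lost without any one of vehicle mice 1 and 4 or treated mice 2, 3 and 5 (log2 0.38 to 0.56).

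Fatty acid oxidation did not fall as a list. Of 30 members 8 fell and 4 rose, and the median log2 fold change of -0.14 turned to 0.35 with total-count scaling, which gave 5 higher and 5 lower. Cpt1a (1.31-fold lower), Acadm and Hadha of the mitochondrial pathway were not called. The 4 that rose were Fgf21, a fasting hormone, Pdk4, which blocks pyruvate dehydrogenase, Pex11a and Ehhadh, all known targets of PPARα. Ehhadh had 476 to 609 CPM in vehicle mice and 337, 2730, 2526, 1329 and 686 CPM at 30 μg/kg, with mouse 1 below every vehicle mouse and the rest above them. Ppara itself fell 3.65-fold, from 67.8 ± 9.86 to 18.6 ± 9.15 CPM.

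Of 23 glycolysis genes tested 9 rose and 7 fell (median 0.30, and 12 higher and 6 lower with total-count scaling). Hk2, the hexokinase of muscle and growing cells, had 0.210 to 3.05 CPM in vehicle mice and 3.37 to 9.11 CPM at 30 μg/kg, low in both groups but without overlap, and rose 4.40-fold. Pklr, the liver-type pyruvate kinase, had 150 to 241 CPM in vehicle mice and 34.3, 4.12, 6.22, 11.4 and 13.6 CPM at 30 μg/kg, a 15.5-fold fall. Pkm, the ubiquitous pyruvate kinase, went from 11.8, 25.3, 13.1, 12.7 and 12.6 CPM to 80.1, 166, 125, 143 and 190 CPM, a 9.31-fold rise (log2 3.22 ± 0.21, SE, adjusted p = 1.94e-15). Neither pair of groups overlapped. Aldoa, the aldolase of muscle, rose 1.67-fold, and Pfkp, a platelet-type phosphofructokinase, rose 3.77-fold. Slc2a1, the ubiquitous glucose carrier, was not called, and Slc2a2, the liver carrier, fell 7.57-fold.

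Of 21 genes of gluconeogenesis and glycogen 13 fell and 2 rose, Pgm2 and Fbp1 (median -1.13, -1.12 in the low and -1.23 in the high set, and 5 higher and 12 lower with total-count scaling). Pck1, which commits carbon to gluconeogenesis, fell 4.62-fold, G6pc, the last step, 2.42-fold, the liver glycogen synthase Gys2 5.88-fold and the phosphorylase Pygl 3.71-fold. Fbp1 was higher in every treated mouse, from 1019 to 1203 CPM in vehicle mice to 1898 to 2502 CPM, 2.00-fold. Of 20 genes of the TCA cycle and pyruvate dehydrogenase 1 rose (Ogdh, lost without any one of 5 libraries, log2 0.50 to 0.57) and 3 fell (Sucla2, Suclg2 and Sdha), and with total-count scaling the count became 5 higher and 1 lower. Cs and Pdha1 were not called.

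Of 33 genes of amino acid breakdown 30 fell and none rose (median -1.37, -1.12 in the low and -1.70 in the high set), the exceptions being Aldh4a1, Dbt (log2 -0.46) and Ivd (-0.48). Without mouse 1 the last 2 were called lower too, at -0.73 and -0.69. Hal, which opens histidine breakdown, had 714, 696, 580, 779 and 834 CPM in vehicle mice and 143, 10.4, 14.9, 16.0 and 44.4 CPM at 30 μg/kg, and fell 15.8-fold (log2 -3.98 ± 0.40, SE, adjusted p = 7.2e-11). Mouse 1 was again nearest to vehicle but outside its range. Sds, which deaminates serine, fell 7.46-fold, Gldc of the glycine cleavage system 3.32-fold and Gpt, the alanine transaminase, 3.18-fold. Tat fell 1.79-fold and Hpd 2.52-fold.

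The urea cycle clears the ammonia that this breakdown releases. Of 14 members 9 fell and none rose (median -1.27, and 1 higher and 8 lower with total-count scaling). Otc had 473, 404, 472, 556 and 488 CPM in vehicle mice and 104, 23.1, 20.3, 29.9 and 32.8 CPM at 30 μg/kg, an 11.4-fold fall (log2 -3.51 ± 0.25, SE, adjusted p = 2.25e-14). The groups were separated by a wide gap. Cps1, which fixes ammonia, fell 4.78-fold, Asl 3.43-fold and Ass1 2.44-fold. Arg1, the last step, was not called at 1.25-fold lower, with 1177 to 1550 CPM in vehicle mice and 916 to 1294 CPM at 30 μg/kg. Glul, which makes glutamine next to the central vein, fell 3.39-fold and the periportal glutaminase Gls2 6.70-fold.

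In the methionine cycle 11 of 18 members fell and 1 rose, Nnmt, which uses up S-adenosylmethionine (median -1.34, and 3 higher and 10 lower with total-count scaling). Nnmt (log2 0.64) was not called without vehicle mouse 1 (0.57) or treated mouse 4 (0.50). Bhmt, which remakes methionine from betaine, had 1893 to 2666 CPM in vehicle mice and 1138, 25.1, 25.7, 39.6 and 316 CPM at 30 μg/kg. Mouse 1 kept by far the most, with the log2 fold change at -2.89 with it and -4.49 without it. Gnmt fell 5.00-fold, Mat1a, the hepatocyte S-adenosylmethionine synthase, 3.10-fold and Cbs 2.78-fold, while Cth and the ubiquitous Mat2a were not called.

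Tryptophan is broken down through kynurenine to NAD. Of 18 members 12 fell and 2 rose, Nampt, the salvage enzyme (1.60-fold, lost without treated mouse 2 or 3, log2 0.57 and 0.52), and Cd38, which consumes NAD (3.78-fold), with a list median of -1.36. Haao had 604 to 764 CPM in vehicle mice and 238, 41.6, 37.9, 65.7 and 100 CPM at 30 μg/kg and fell 6.91-fold. Kmo fell 4.97-fold, Kynu 4.48-fold, Ido2 3.63-fold and the entry enzyme Tdo2 1.55-fold. Acmsd, which diverts the pathway from NAD, was not called.

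Heme synthesis had its first enzyme higher and later ones lower. Alas1, the rate-limiting step, had 99.4, 244, 279, 176 and 140 CPM in vehicle mice and 327, 1287, 1232, 1385 and 800 CPM at 30 μg/kg. All treated mice were above all vehicle mice and the rise was 5.36-fold (log2 2.42 ± 0.52, SE, adjusted p = 0.000154). Alad fell 1.90-fold and Cpox 1.55-fold, with Uros and Ppox the other 2 that fell (Ppox, like Cpox, at the threshold and not called without any one of 4 libraries, log2 -0.57 to -0.55; Cpox was not called without vehicle mouse 2 or treated mouse 2, 3 or 5, and only 2 fell without treated mouse 3). With total-count scaling none of these 4 stayed called lower. Urod (1.45-fold lower, and called without treated mouse 1 or 5) and Fech were not called. Blvra, Blvrb and Slc48a1, which handle the products of heme breakdown and heme transport, rose beside Alas1.

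Iron handling genes were split, with 5 of 16 higher and 8 lower (7 higher and 4 lower with total-count scaling). Hamp, the iron hormone hepcidin, fell 1.99-fold with overlapping groups and was not called without vehicle mouse 3 (log2 -0.75), Hamp2 fell 15.0-fold from 3.49 ± 1.52 to 0.226 ± 0.119 CPM, and Tfr2, a hepatocyte iron sensor, 3.79-fold. Tfrc, the transferrin receptor for iron uptake, rose 2.55-fold. Of 18 retinoid genes 5 rose and 3 fell (10 higher and 3 lower with total-count scaling). Lrat, which esterifies retinol for storage, rose 2.73-fold, from 10.4 to 14.3 CPM in vehicle mice to 19.5 to 48.8 CPM. Rbp4, the plasma carrier of retinol, was not called.

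Growth hormone sets the sex pattern of the mouse liver through pulsatile signalling in males. Of 17 male-biased genes tested all 17 fell (median -4.50, -3.79 in the low and -5.24 in the high set), and of 13 female-biased genes tested 10 rose and none fell (median 2.76, 3.18 and 3.52, and 1 lower without vehicle mouse 3 or 4 or treated mouse 1). Moxd1 of the male list and 6 of 19 female genes did not pass the filter on low counts. The filter favours a gene that is high in at least 1 group, so the counts describe the tested members alone. Selenbp2 had 122, 94.6, 620, 455 and 131 CPM in vehicle mice and 23.8, 1.96, 0.801, 1.15 and 5.31 CPM at 30 μg/kg. Vehicle mice 3 and 4 were the high ones, as they were for Serpina1e (8714 and 6683 CPM against 1740 to 3151 CPM) and Cyp7b1, and no treated mouse reached a vehicle mouse. Slco1a1, a male-biased anion carrier, fell 28.1-fold, Cyp2d9 3.23-fold and Gstp1 1.77-fold, the last with overlapping groups.

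The major urinary proteins are pheromone carriers made in bulk by male liver. Of 28 members tested (43 listed, many of them pseudogenes) 23 fell and the pseudogene Mup-ps10 rose (median -3.45). Mup-ps10 was highest in mouse 1, at 10.6 CPM against 0.374 to 0.834 CPM in the other 4, and 3 members were higher without vehicle mouse 3, 2 without treated mouse 2 and 3 with total-count scaling. Mup3 had 9532, 7459, 9982, 10429 and 9865 CPM in vehicle mice and 128, 2.75, 4.80, 3.69 and 34.2 CPM at 30 μg/kg. Mouse 1 held the most and was still far below vehicle. Its fall was 273-fold (log2 -8.09 ± 0.70, SE, adjusted p = 1.88e-12). Mup20 fell 17.5-fold. The summed level of the family was 8534 to 15200 CPM in vehicle mice, 1498 to 3974 CPM at 10 μg/kg and 36.9 to 614 CPM at 30 μg/kg. The copies are so alike that reads mapping to several of them were not counted, and values of single members are uncertain.

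The growth hormone receptor Ghr had 461 to 570 CPM in vehicle mice and 189, 67.2, 71.9, 87.2 and 92.9 CPM at 30 μg/kg, a 5.01-fold fall (log2 -2.33 ± 0.19, SE, adjusted p = 8.17e-13). Its main output Igf1 fell 3.02-fold, with mouse 1 at 402 CPM, at the level of the lowest vehicle mouse, and the others at 81.5 to 164 CPM. Igfals, which keeps IGF1 in plasma, fell 4.77-fold and Igfbp2 9.35-fold. Igfbp1 rose 8.58-fold but varied widely, from 13.4 to 202 CPM in vehicle mice and from 131 to 1695 CPM at 30 μg/kg. Socs2 and Cish, direct targets of the receptor's signalling through STAT5, were not called. Bcl6, a repressor of female genes in males, fell 4.40-fold with overlapping groups, a call lost without vehicle mouse 4 (log2 -1.72).

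Of 23 hepatocyte transcription factors and nuclear receptors 17 fell and Cebpb, an acute phase factor, was called higher (median -0.81, -0.88 and -0.95 in the low and high sets, and 10 lower with total-count scaling). Cebpb (log2 0.89) was not called by DESeq2, in either set of title numbers alone or without any one of 6 libraries (0.74 to 0.86). Cebpa had 366, 499, 501, 444 and 486 CPM in vehicle mice and 174, 132, 159, 110 and 159 CPM at 30 μg/kg, a 3.13-fold fall with mouse 1 close to the rest. Foxa2 fell 2.39-fold. Hnf4a (1.29-fold lower), Nr1i2, Nr1i3 and Esr1 were not called, though Esr1 was without mouse 1 (log2 -0.97) and Nr1i2 without mouse 2 (-0.62).

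The liver clock was sampled at a single phase, so a change of level and a shift of phase cannot be told apart. Of 20 clock genes 8 fell and 3 rose, Dbp, Bhlhe41 and Usp2, and the median of -0.27 turned positive (0.23) with total-count scaling, which gave 6 higher and 5 lower. Arntl (BMAL1) had 29.4 to 37.3 CPM in vehicle mice and 21.5, 12.6, 12.5, 13.0 and 11.0 CPM at 30 μg/kg, and fell 2.34-fold. Npas2 fell 4.21-fold and Nfil3 3.71-fold. Nr1d1 fell 3.97-fold, but its vehicle values ran from 5.17 to 45.3 CPM and overlapped those of the treated mice, and the call was lost without vehicle mouse 5 (log2 -1.54). That of Dbp was lost without any one of 7 libraries (log2 1.05 to 1.25).

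Hepatocytes differ along the line from portal to central vein. Of 12 periportal markers 7 fell and 3 rose (median -1.62), and of 17 pericentral markers 7 fell and 5 rose (median -0.48, and 6 higher against 4 lower with total-count scaling). Cyp2e1, the pericentral P450 that oxidizes ethanol, had 4951 to 7627 CPM in vehicle mice and 3922, 971, 1337, 1412 and 1904 CPM at 30 μg/kg, a 3.29-fold fall. Cyp2f2, a periportal P450, fell 3.36-fold, with 697 to 1025 CPM in vehicle mice and 522, 85.2, 174, 222 and 352 CPM at 30 μg/kg. Both P450s lay lower in all 5 treated mice than in any vehicle mouse. The WNT target Axin2 rose 1.59-fold, Lgr5 fell 1.55-fold and Tbx3 was not called, all with overlapping groups. Without mouse 1 only 3 pericentral markers rose, Axin2 (log2 0.53) no longer among them, and Lgr5 lost its call without any one of 4 libraries (-0.58 to -0.52). Etnppl, a periportal phospho-lyase, rose 2.57-fold.

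Secreted proteins are the liver's bulk product. Of 14 plasma protein genes 10 fell and Serpina6, the corticosteroid carrier, rose (median -1.56). Serpina6 rested on mouse 1, with a log2 fold change of 0.81 with it and 0.25, not called, without it. For the whole list the summed level was 118200 to 144300 CPM in vehicle mice, 82290 to 131300 CPM at 10 μg/kg and 39770 to 84410 CPM at 30 μg/kg. Alb, the first marker of hepatocytes, had 87534, 80184, 74063, 80837 and 92459 CPM in vehicle mice and 49843, 24544, 24321, 33696 and 40230 CPM at 30 μg/kg, so that every library was that of liver tissue by its label. The fall was 2.40-fold (log2 -1.27 ± 0.17, SE, adjusted p = 2.97e-08). Ttr fell 2.91-fold, Ahsg 2.98-fold and Gc 2.77-fold. In whole liver, fewer hepatocytes and less of an RNA in each hepatocyte cannot be told apart, and the same holds for the cell type markers below.

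Of 24 complement genes 17 fell and 4 rose (median -1.53, -1.34 and -1.82 in the low and high sets). Those that fell are mostly made by hepatocytes. C9, which lines the membrane attack pore, had 319, 321, 470, 476 and 358 CPM in vehicle mice and 83.1, 4.74, 5.64, 7.26 and 25.8 CPM at 30 μg/kg. Every treated mouse was below every vehicle mouse, and the fall was 15.4-fold (log2 -3.94 ± 0.44, SE, adjusted p = 8.71e-10). Other members of the pore complex followed, C8b 9.02-fold lower and Hc 7.40-fold lower. C3, the hub of the cascade, fell 1.86-fold with overlapping groups. The 4 that rose were C1qa (4.02-fold), C1qb and C1qc, made by macrophages, and Cfp.

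Of 25 coagulation genes 21 fell and 2 rose, F13a1 being 1 of them (median -1.48, -1.18 and -1.81 in the low and high sets). Fgg, a chain of fibrinogen, fell 7.46-fold, Plg 6.51-fold, F7 5.56-fold and F2 (prothrombin) 3.02-fold. Among Serpina inhibitors 13 of 19 fell and 5 rose, the rises all in Serpina3 copies and Serpina6, and Serpina1e fell 351-fold.

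Acute phase genes did not share a direction, with 6 of 14 higher and 5 lower. Lcn2, which withholds siderophore iron from bacteria, had 2.46 to 6.93 CPM in vehicle mice and 27.4, 159, 89.5, 115 and 227 CPM at 30 μg/kg, a 23.9-fold rise. Mt1, a metal-binding metallothionein, rose 11.4-fold. Saa3 rose 5.17-fold, with mouse 5 at 40.3 CPM and the others at 3.16 to 6.90 CPM. The genes that fell were Saa4, Orm1, Hp, Crp and Serpina3n. Hp (haptoglobin) fell 3.50-fold, with 342 to 587 CPM in 4 treated mice, 1685 CPM in mouse 5 and 2159 to 2663 CPM in vehicle mice. Saa1 was not called.

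**Figure D3:**
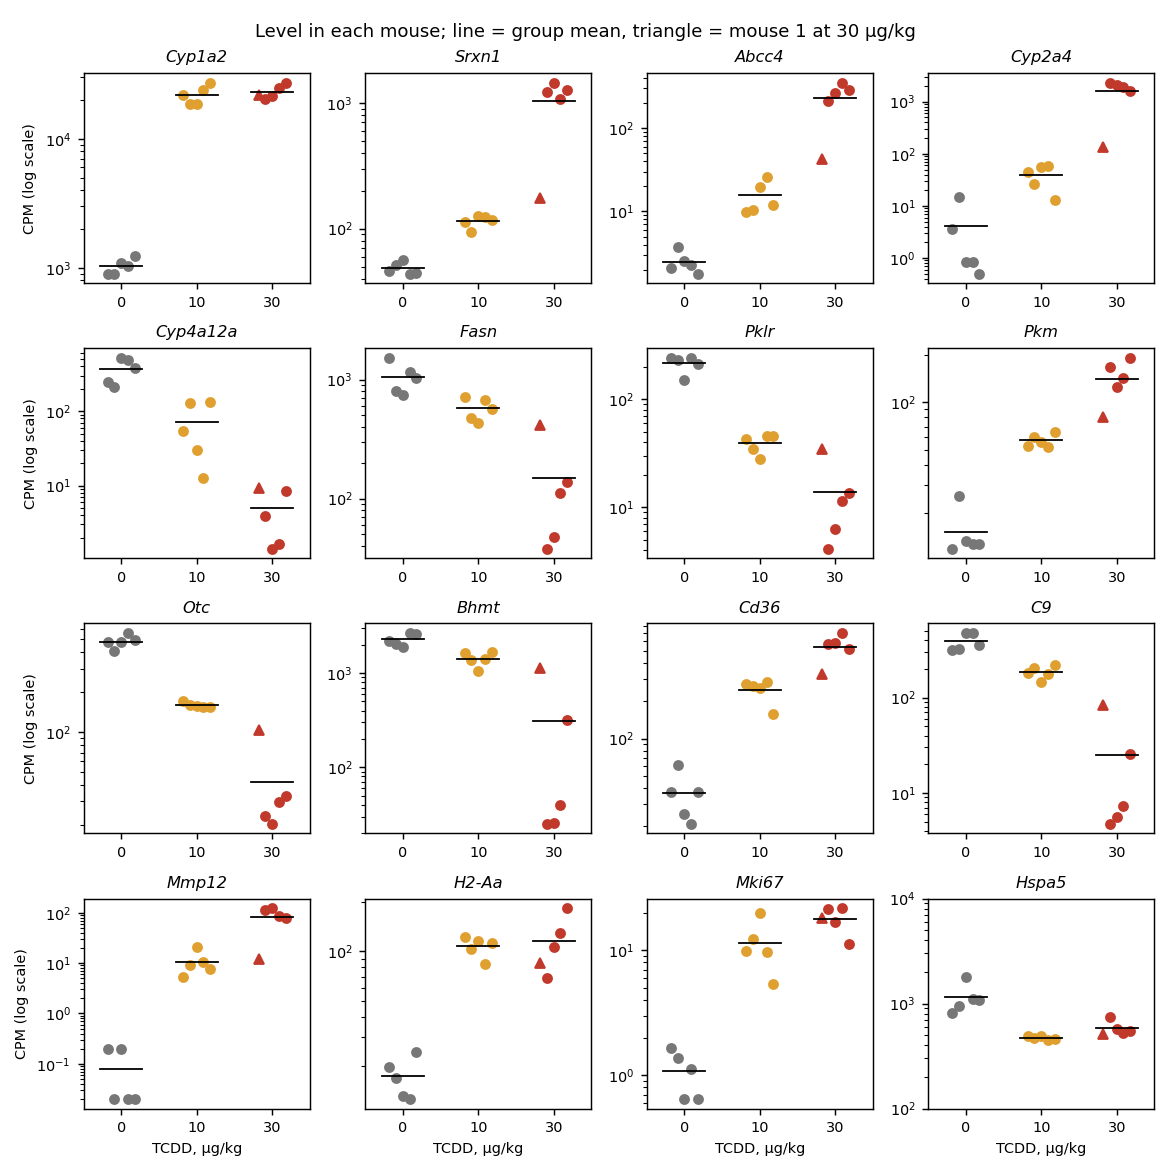
Level of 16 genes in each vehicle mouse (0) and each mouse at 10 and 30 μg/kg, in CPM on a log axis, with the group mean as a line and mouse 1 at 30 μg/kg as a triangle (values of 0 are drawn at 0.02 CPM). No vehicle mouse overlaps a 30 μg/kg mouse in any panel, but the 16 genes were picked for display, so this is no separate result. Other named genes, such as Acta2, Plin2 and Hamp, did overlap. Mouse 1 lies nearest to vehicle for Srxn1, Fasn, Bhmt and C9 but among its group for Cyp1a2 and Mki67.

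Markers of leukocytes were higher. Of 10 monocyte and macrophage markers all 10 rose (median 2.89, 2.46 and 3.38 in the low and high sets), and their summed level was 70.0 to 93.7 CPM in vehicle mice, 216 to 274 CPM at 10 μg/kg and 265 to 731 CPM at 30 μg/kg. Lyz2, the lysozyme of myeloid cells, had 26.1 to 37.6 CPM in vehicle mice and 98.6, 344, 346, 389 and 371 CPM at 30 μg/kg, a 9.77-fold rise (log2 3.29 ± 0.24, SE, adjusted p = 1.67e-14). Mouse 1 rose least. Cd68, a lysosomal protein of phagocytes, rose 8.19-fold, the monocyte chemokine receptor Ccr2 6.74-fold and Itgam (CD11b) 16.4-fold.

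Kupffer cells are the resident macrophages of the sinusoids. Of their 8 markers 7 rose and only Folr2 was not called (list median 1.71), which without vehicle mouse 1 was called at a log2 of 1.39, and the summed level went from 113 to 164 CPM in vehicle mice to 363 to 913 CPM. Clec4f, the marker most specific to mouse Kupffer cells, rose 1.86-fold with overlapping groups, Vsig4 5.18-fold and the scavenger receptor Marco 40.8-fold. Clec4f therefore rose less than Marco in the same livers.

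Of 11 markers of lipid-associated macrophages 9 rose (median 3.80). Trem2, their lipid receptor, had 0.194 to 0.560 CPM in vehicle mice and 2.64, 30.2, 20.8, 19.4 and 22.0 CPM at 30 μg/kg. Mouse 1 stood between the groups. Lgals3 (galectin-3) rose 39.6-fold, Itgax 13.9-fold, and Mmp12, a macrophage elastase, went from at most 0.199 CPM in vehicle mice to 12.3 to 124 CPM. Spp1 rose 5.32-fold. The summed level of this list, 509 to 707 CPM in vehicle mice and 548 to 1576 CPM at 30 μg/kg, overlapped. In vehicle mice most of it was Ctsl, a cathepsin that hepatocytes also express and that was just short of a call (log2 -0.56, and -0.66 to -0.60 and called lower without any one of 4 libraries).

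Neutrophil markers were low. Of 12 listed, 7 were tested and all 7 rose (median 4.50), with a summed level of 2.59 to 4.73 CPM in vehicle mice and 20.2 to 96.4 CPM at 30 μg/kg. The defining granule genes Mpo, Ngp, Camp and Ltf and the surface marker Ly6g did not pass the filter. A marker nearly silent in vehicle mice, such as S100a8, could pass it only through a treated group. For such markers a rise was fixed in advance, so the count describes the tested members alone. S100a8 rose 22.9-fold, from 0 to 0.597 CPM to 2.13 to 11.1 CPM. Of the 7 subunits of the phagocyte NADPH oxidase list 6 rose, Cybb 7.52-fold and Ncf1 5.26-fold, and Nox4, the oxidase of parenchymal cells, fell. Lymphocyte markers rose less. Of 11 T and NK cell markers tested 6 rose (median 1.57), Cd8a 6.59-fold and Cd3e 2.97-fold (not called without any one of 4 libraries, log2 1.17 to 1.45), while Cd4 was not called, and 7 of 10 B and plasma cell markers rose (median 1.38) while Ighm and Jchain did not.

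All 10 tested genes of MHC class II presentation rose (median 2.61, 2.13 and 2.83 in the low and high sets). H2-Aa had 19.6, 17.0, 13.1, 12.6 and 24.2 CPM in vehicle mice and 85.4, 69.1, 107, 130 and 183 CPM at 30 μg/kg. Mouse 1 was inside its group here, and the rise was 6.63-fold (log2 2.73 ± 0.32, SE, adjusted p = 3.9e-09). Ciita, the master regulator of the class II genes, rose 4.18-fold and the invariant chain Cd74 6.18-fold. Of the 10 genes 1 was higher than at 10 μg/kg, near the 10.6% of all genes.

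Interferon-stimulated genes were divided, with 10 of 29 higher and 9 lower (median 0.11, which was -0.15 to -0.01 without any one of 5 libraries). This balance was not stable, with 13 higher and 3 lower with total-count scaling and 8 higher and 10 lower in the low set of title numbers alone. Isg15 fell 1.80-fold and Ifit1 2.44-fold, both with overlapping groups, Ifi27l2a rose 2.75-fold, and Irf7 and Rsad2 were not called. Of 13 cytokine and inflammasome genes tested 10 rose and 2 fell, Il18 and Gsdmd. Tgfb1, which drives scarring, rose 3.90-fold, from 8.12 to 10.5 CPM to 24.4 to 51.8 CPM, the macrophage growth factor Csf1 2.17-fold, Il1b 5.18-fold and Tnf 4.05-fold. Il6, Il10, Il12b and Osm did not pass the filter. Among chemokines 14 of 24 rose and 5 fell, led by Ccl6 (17.2-fold higher) and Ccl27a (3.92-fold lower), and 11 of 17 chemokine receptors rose. Toll-like receptors rose in 8 of 12 cases, Tlr13 32.1-fold, and Tlr5, the flagellin receptor, fell 4.45-fold. Markers of leukocytes thus rose in the same livers in which hepatocyte genes fell, and their part in those falls was not tested.

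Stellate cells make the matrix of scarred liver. Of 29 stellate and matrix genes tested 25 rose and only Fn1 fell (median 2.10, 1.97 and 2.48 in the low and high sets). The summed level of the list did not rise, at 1747 to 2328 CPM in vehicle mice and 1536 to 2308 CPM at 30 μg/kg. Acta2, the smooth muscle actin of activated stellate cells, had 2.04, 15.2, 1.49, 1.75 and 2.44 CPM in vehicle mice and 8.29, 45.5, 32.1, 39.4 and 51.4 CPM at 30 μg/kg. Vehicle mouse 2 lay above treated mouse 1, and apart from that pair the groups did not overlap. Acta2 rose 7.69-fold (log2 2.94 ± 0.52, SE, adjusted p = 7.78e-06).

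Lox, which crosslinks collagen, rose 30.1-fold and Loxl2 5.60-fold. Elastin (Eln) rose 5.16-fold, Pdgfrb, the receptor of stellate cells, 2.49-fold and decorin (Dcn) 2.36-fold. Timp1, an inhibitor of matrix proteases, had counts in 1 of 5 vehicle mice (0.373 CPM) and 1.02 to 7.20 CPM at 30 μg/kg. Fn1, fibronectin, which hepatocytes secrete into plasma, fell 2.86-fold, and Des was not called (log2 0.38, and 1.41 and called without vehicle mouse 2). Of 31 collagens tested 18 rose and 4 fell (Col18a1, Col20a1, Col27a1 and Col5a3), with a median of 1.15. The summed level of the collagens overlapped between the groups, at 1585 to 1940 CPM in vehicle mice and 1587 to 2129 CPM at 30 μg/kg. Among metalloproteases and their inhibitors 27 of 44 rose and 4 fell (median 1.59). Integrins (19 of 28 higher) and laminins (8 of 11 higher) had more members higher than the 23.2% of all genes.

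All 7 vascular endothelial markers rose (median 1.34), Vwf 2.97-fold and Pecam1 2.54-fold, and their summed level was 105 to 126 CPM in vehicle mice and 189 to 340 CPM at 30 μg/kg. Of 14 sinusoidal markers 9 rose and none fell, but by less (median 0.64), and Stab2 and Clec4g stayed under the fold threshold. Wnt2 and Rspo3, signals from central endothelium to hepatocytes, rose 2.64- and 2.09-fold. Of 10 cholangiocyte markers tested 7 rose and Sox9 fell (median 2.33, and 7 higher and none lower with total-count scaling). Mouse 2 led these, with Krt7 at 22.2 CPM against 1.57 to 3.78 CPM in the other treated mice and 0.547 to 1.68 CPM in vehicle mice, and Epcam at 30.9 CPM against 2.23 to 9.65 CPM and 1.09 to 2.15 CPM. The summed level of the cholangiocyte list was 107 to 139 CPM in vehicle mice and 259 to 467 CPM at 30 μg/kg. Cftr and Sctr did not pass the filter.

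Dividing cells make the mitotic genes. Of 34 cell cycle genes 31 rose and only E2f8 fell (median 2.64, 2.68 and 2.63 in the low and high sets). Mki67, the proliferation antigen, had 1.64, 1.37, 0.647, 1.12 and 0.645 CPM in vehicle mice and 18.0, 21.2, 16.9, 21.7 and 11.3 CPM at 30 μg/kg. Mouse 1 lay in the middle of its group, and the rise was 16.1-fold (log2 4.01 ± 0.37, SE, adjusted p = 9.62e-12). Top2a rose 13.8-fold, Cdk1 11.4-fold, the replication helicase subunit Mcm5 8.28-fold, Ccnd1 (cyclin D1) 4.63-fold and Pcna 1.93-fold. Tyms and E2f2 were not called. Total RNA of liver does not tell which cells held these transcripts.

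Of 20 genes of p53 signalling and growth arrest tested 13 rose and Bbc3 fell (median 0.87). Cdkn1a, the p21 inhibitor of cyclin-dependent kinases, had 8.41 to 16.8 CPM in vehicle mice and 35.3, 131, 107, 90.1 and 113 CPM at 30 μg/kg, an 8.22-fold rise (log2 3.04 ± 0.46, SE, adjusted p = 4.74e-07). Phlda3 rose 4.64-fold, Gdf15, a secreted stress hormone, 3.61-fold, Bax 1.74-fold and Mdm2 1.65-fold, while Gadd45a was not called. Cdkn2a and Cdkn2b, markers of senescence, did not pass the filter. Genes of the fetal liver rose in 5 of 11 cases, Afp, Dlk1, Gpc3, Peg3 and Grb10, of which Peg3 (log2 1.48) was at 0.37 and not called without treated mouse 2. Afp had 1.12 to 2.72 CPM in vehicle mice and 7.92, 99.7, 48.4, 83.2 and 14.1 CPM at 30 μg/kg, a 28.3-fold rise with mice 1 and 5 lowest. H19 (log2 0.54) and Meg3 were not called, but without vehicle mouse 2, the only vehicle mouse with more than a trace of H19 (10.1 CPM), H19 was at 6.30 and called, and Igf2 had 0 counts in all 10 libraries.

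Branches of the stress response parted. In the integrated stress response 8 of 13 genes rose and none fell (median 1.89), whereas in the unfolded protein response of the endoplasmic reticulum 11 of 14 fell and none rose (median -1.02, -0.52 with 4 lower under total-count scaling). Asns, the asparagine synthetase, had 0.931 to 7.12 CPM in vehicle mice and 39.3, 35.9, 45.5, 46.6 and 39.7 CPM at 30 μg/kg. The treated mice were tightly grouped, mouse 1 included, and the rise was 12.9-fold (log2 3.69 ± 0.62, SE, adjusted p = 3.34e-06). Atf3 rose 13.6-fold, Mthfd2, the mitochondrial folate enzyme, 5.88-fold and Trib3 3.71-fold. Atf4, the translated effector of this response, and Ddit3 were not called (Ddit3 was, at -0.61, without treated mouse 5). Hspa5 (BiP), the chaperone that gauges unfolded protein, had 821, 947, 1791, 1103 and 1069 CPM in vehicle mice and 518, 750, 574, 523 and 547 CPM at 30 μg/kg. The groups did not overlap, and the fall was 1.97-fold (log2 -0.98 ± 0.22, SE, adjusted p = 0.000231). Hsp90b1 fell 1.70-fold and Dnajb9 1.76-fold. With total-count scaling none of these 3 was called (log2 -0.47 for Hspa5).

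Housekeeping assemblies changed little under TMM scaling, but their counts depend on it. Of 79 cytosolic ribosomal protein genes 6 rose and none fell (median 0.21, 2 higher without treated mouse 5). With total-count scaling 53 of the 79 were higher and none lower (median 0.71, against 0.52 for all genes). Of 38 proteasome subunits Psma8 was called higher (median 0.01), and of 80 nuclear subunits of oxidative phosphorylation 2 rose and 11 fell (median -0.33). Psma8 (log2 1.28) was not called without treated mouse 2 (1.02) or vehicle mouse 4 (1.10), and 15 proteasome subunits were higher with total-count scaling. The count for oxidative phosphorylation depends on scaling and on mouse 1, since total-count scaling gave 11 higher and 2 lower and leaving out mouse 1 or mouse 2 gave 17 or 18 lower. Of 13 mitochondrially encoded genes mt-Co2 rose (not called without vehicle mouse 2 or treated mouse 3 or 4, log2 0.51 to 0.54) and mt-Cytb, mt-Nd2 and mt-Nd4 fell (mt-Nd4 was at -0.58 and not called without vehicle mouse 1), with the median of -0.15 at 0.35 under total-count scaling, which gave 2 higher and 1 lower. Of 24 lysosomal genes 9 rose, Ctsd 2.86-fold and Ctsk 7.02-fold, and only Lipa, the acid lipase, fell (1.55-fold, not called without mouse 1, log2 -0.58).

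Other single genes with large changes were named by their fold alone or as the extremes of a family. Nptx1, a pentraxin of neurons, had counts in 2 of 5 vehicle mice (0.0995 and 0.215 CPM) and 376, 79.1, 103, 376 and 328 CPM at 30 μg/kg. Wnt10a stood at no more than 0.0622 CPM in vehicle mice and at 41.5 ± 27.5 CPM at 30 μg/kg. Tuba8, a tubulin of muscle and testis, rose 71.6-fold from 1.71 ± 0.697 to 123 ± 30.0 CPM. Among the falls, Wfdc21, a small secreted protein, went from 243 to 320 CPM in vehicle mice to 7.36, 0.333, 0.686, 0.476 and 4.64 CPM, 106-fold. Cldn1, a claudin of hepatocyte tight junctions, fell 13.4-fold while Cldn14 rose 3.88-fold. Genes picked in this way can hardly overlap between treated and vehicle mice, so the gaps seen here are no separate result.

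The direct comparison of 30 with 10 μg/kg differed between lists. MHC class II had 1 of 10 higher and the integrated stress response 1 of 13 higher and 1 lower. The unfolded protein response had 1 of 14 lower, and T and NK cell markers 0 of 11. Among all genes the share was 10.6% in each direction, so for lists this short such counts do not set them apart. The mean of the class II list was 1.80 to 2.24 above vehicle at 10 μg/kg and 1.97 to 2.90 at 30 μg/kg. In contrast, cholesterol synthesis (25 of 25) and amino acid breakdown (27 of 33) were lower at 30 than at 10 μg/kg. So were coagulation (19 of 25), complement (18 of 24) and male-biased genes (15 of 17). Cholesterol synthesis had not fallen at 10 μg/kg, with list means of -0.41 to 0.32 against -0.34 to 0.32 in vehicle mice. Macrophage markers (8 of 10), stellate and matrix genes (19 of 29) and NRF2 and glutathione genes (17 of 26) rose further. The cell cycle was intermediate, with 12 of 34 higher. In the first set mouse 1 lay within or next to the other 4, and in the second its list means lay next to or among the 10 μg/kg mice, except for male-biased genes, where it lay midway (-3.98 against -3.07 to -1.12 at 10 μg/kg and -6.00 to -4.85 in the others). For amino acid breakdown it lay at -0.82 against -0.69 to -0.31 at 10 μg/kg and -2.07 to -1.59 in the others.

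**Figure D4:**
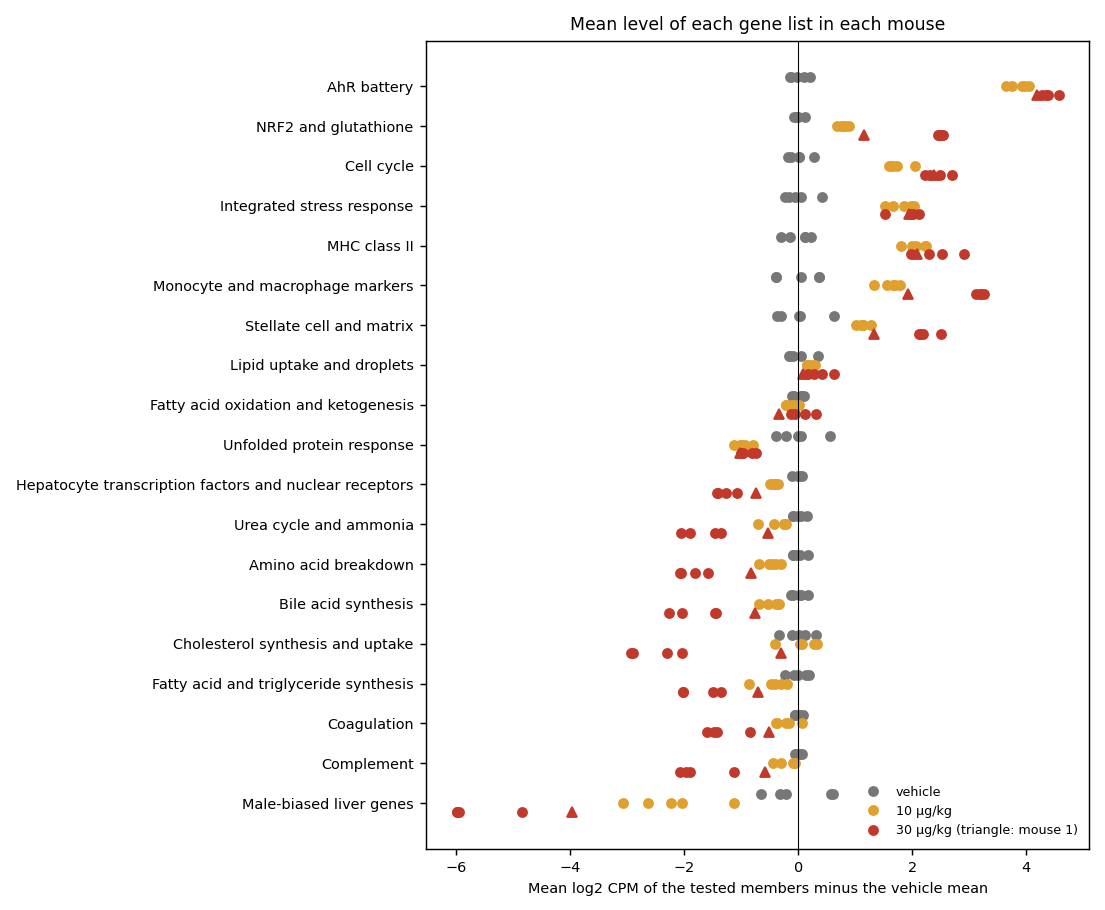
Mean log2 CPM of the tested members of 19 gene lists in each mouse, as the difference from the vehicle mean, for vehicle (grey), 10 μg/kg (orange) and 30 μg/kg (red, with mouse 1 as a triangle). MHC class II, the integrated stress response and the unfolded protein response have the 10 and 30 μg/kg mice side by side, while for cholesterol synthesis mouse 1 sits at -0.31 with the vehicle mice and the other 4 at -2.93 to -2.05.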

How the data were processed

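Total liver RNA of 40 mice was sequenced as 150-base read pairs, and the authors deposited, for every library, STAR's gene table of raw counts without any scaling. The submitters' processing notes name FastQC 0.11.7, Trimmomatic 0.39 and STAR 2.7.3a, and list both GRCm39 and mm10 without a role for either. STAR counts only read pairs that map once. The column without strand was used, since 50.2 to 50.3% of stranded reads fell on the first strand, so a gene and an overlapping antisense gene cannot be told apart. Rows that name no gene stayed out of library sizes (in the 10 libraries no feature 4.33 to 6.64%, ambiguous 5.01 to 5.90%, unmapped 2.47 to 7.72%, multimapping 5.43 to 7.43%). A deposited series table of normalized log2 values was not used. Of 55359 gene identifiers 52083 had a symbol.

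Groups follow the dose labels. All 40 libraries entered 1 fit with 1 mean per dose in edgeR 4.0.16 (R 4.3.3), with TMM scaling, default filtering (minimum count 10, minimum total 15) and the quasi-likelihood test. Calls needed an adjusted p under 0.05 and a fold change of 1.5, the study's fold threshold. Its empirical Bayes posterior was not run here. Fold changes are those of the fit. The procedure was tested on simulated data with known changes. The 15.5 M to 20.9 M counts per library set the precision of low genes, and the floor of 3 counts is 0.188 CPM in vehicle and 0.124 CPM at 30 μg/kg. Reads carry no molecular identifiers, so the floors cover counting error only.

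The members and gene lists were chosen with earlier results of these data known. Genes are named as leads of a list, as members that a count of 5 or fewer singles out, as the largest rise and fall of a family whose higher group averages 100 counts or more, as 1 of the 10 largest rises or falls with at least 1000 counts and all 5 treated mice on 1 side of the vehicle mean, or for the promoters shown. Some genes that this rule names are not reported here. Alternatives were DESeq2 1.42.0, RLE factors, total-count scaling, other filters, only the compared groups, the title-number sets as a covariate or alone, no fold threshold, the strand column with more reads, and leaving out each library.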

Additional observations from a re-analysis of the deposited data

Results flagged for a closer look

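Dixon's ratio is the gap of a mouse to its nearest neighbour as a share of its group's range (critical value 0.71 for 5 samples). It was taken on log2 CPM, whereas the levels printed beside it are plain CPM. A single mouse lay far from the other 4 of its group by this ratio in 49 of 619 groups tested, where chance gives about 1 in 20. Of these, 27 were mouse 1 at 30 μg/kg, 4 were other treated mice and 18 were vehicle mice.

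Mouse 1 at 30 μg/kg was the lowest of its group in induced genes. The ratio was 0.859 for Srxn1, 0.852 for Nqo1, 0.876 for Cyp2a4, 0.756 for Abcc4, 0.776 for Pfkp and 0.844 for Cd38. It was 0.932 for Slc48a1 (106 CPM against 420 to 464 CPM) and 0.809 for Blvrb. Among macrophage and lysosomal genes it was 0.798 for C1qb, 0.909 for Lyz2 (98.6 CPM against 344 to 389 CPM), 0.814 for Cd68, 0.798 for Marco, 0.816 for Trem2, 0.795 for Mmp12, 0.715 for Lgals3, 0.827 for Tlr13 and 0.849 for Ctsd. It was 0.741 for Acta2, 0.715 for Cdkn1a, 0.717 for Gdf15 and 0.743 for Wnt10a. The same mouse was the highest of its group in genes that fell, with ratios of 0.858 for Hmgcs1 (216 CPM against 38.3 to 49.0 CPM), 0.711 for Cyp51, 0.721 for Cpox, 0.758 for Arntl (BMAL1) and 0.828 for Ugt1a5. In each of these 26 genes it lay on the vehicle side of its group. The exception was the pseudogene Mup-ps10, which rose and was highest in mouse 1 (0.785).

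Treated mouse 2 was highest for Eln (0.778) and Hspa5 (0.724), and treated mouse 5 was highest for Cldn14 (0.774) and lowest for Hsd17b6 (0.775). Vehicle mouse 2 was highest for Pkm (0.859), Acta2 (0.794), Des (0.770), H19 (0.891) and Timp1, where the ratio was 1 because the other 4 vehicle mice had no count, and lowest for mt-Nd2 (0.785) and Mup3 (0.732). Its Acta2 level was 15.2 CPM against 1.49 to 2.44 CPM and its Des level 31.0 CPM against 3.78 to 6.16 CPM. Vehicle mouse 3 was highest for Cyp2d40 (0.714) and Ces3a (0.802) and lowest for G6pc (0.807) and Itgax (0.721). Vehicle mouse 1 was lowest for Gadd45a (0.806), vehicle mouse 4 for Pdgfrb (0.752), and vehicle mouse 5 for Socs2 (0.758), Ugt1a7c (0.841) and Abcb1b (0.875). Vehicle mouse 5 was highest for Il18 (0.739) and vehicle mouse 3 for E2f2 (0.782).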

How the results depend on the processing

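Genes called at 30 μg/kg against vehicle numbered 6476, with 3567 higher and 2909 lower. A filter at a mean of 50 counts, which tests fewer genes, left 4272 called and 2172 higher. Scaling to total counts gave 6402 higher and 1559 lower, with the median of all genes at 0.52 in place of 0.03. Leaving out 1 library at a time gave 6195 to 6961 called, 3340 to 3764 higher and 2855 to 3197 lower, the most without mouse 1. Between 30 and 10 μg/kg 3249 genes were called, 4883 with no fold threshold, 506 in the low set of title numbers alone and 2689 to 4116 when 1 library was left out, again most without mouse 1. Every other alternative kept these 4 counts within 1.5 times.

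Of 313 genes named and tested none changed sign while called. Total-count scaling ended 25 calls, all of genes that fell and among them Tat (log2 -0.34), Alad (-0.45), C3 (-0.44), Nr1h4 (-0.33), Ifit1 (-0.81) and Sox9 (-0.48), and added 10. The low set of title numbers alone, with 2 treated mice, ended 44 calls and the high set 17. DESeq2 gave the same call for 307, lost that of Cebpb and gave no adjusted p for the other 5 (Bhmt, Igfals, C8b, Ces3a and Mup3). Calls of 37 genes changed when 1 library was left out. The median of 10 of 86 lists and families changed sign with total-count scaling, and that of none with DESeq2 or RLE factors. The causes were not tested.

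No paired analysis was possible because the replicate numbers follow accession order and pair no mice. Whole-liver RNA at 1 time of day does not separate cell numbers from RNA per cell, genes that are near copies share reads that were not counted, and genes near the floor of 3 counts have fold changes that depend on the prior count.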
